A study of Mus musculus with 30 samples.

Results

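Pappa2 and 9 other genes of the insulin-like growth factor (IGF) axis were followed through βTC3 cells, a mouse insulinoma line that makes insulin. The 10 genes were Pappa2, Pappa, Igf2, Igf1r, Igf2r, Insr, Igfbp3, Igfbp4, Igfbp5 and Igfbp7, of 39017 genes in the count table. Pappa2 was selected on its measured counts, which were far lower in both lines with a hairpin against ALK7 than in the control line. Its hairpin-to-control differences are therefore given as a description without a test. The other 9 were taken as its paralog, its substrates and related binding proteins, and the ligand and receptors of the axis. The filter on low counts kept 9 of the 10, all but Pappa.

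The constructs of the 5 βTC3 lines sat in piggyBac plasmids and were inducible with doxycycline. The control line, the line labelled ALK7 and the line labelled ALK7-DN, a dominant-negative form, had the plasmid PB-33. The line with 1 hairpin (sh2) and the line with a pair of hairpins (sh1/2) had PB-31. A PB-31 line without a hairpin was not analysed here, so plasmid and hairpin cannot be told apart. Every culture, controls included, was kept for 24 hours in doxycycline at 1 µg/ml (DOX), with or without activin B at 50 ng/ml for 24 hours. Each of the 10 groups had 3 libraries of poly(A) RNA from wells of a 6-well plate, so p-values measure only the spread between these wells, which may be technical. By their labels, 24 libraries belonged to batch 1. Batch 2 held the other 6, which were sh2 without activin B and ALK7-DN with it, and in these lines batch and treatment cannot be told apart.

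IGF1 and IGF2 signal through the IGF1 receptor, and IGF2 and insulin through the insulin receptor, while the IGF2 receptor carries IGF2 to lysosomes. Outside the cell most IGF is held by IGF binding proteins. The secreted metalloproteases PAPP-A and PAPP-A2, the latter encoded by Pappa2, cut some of these proteins and free the IGF. PAPP-A2 cuts IGFBP3 and IGFBP5, and PAPP-A cuts IGFBP4 and IGFBP5. Islet tumours of mice that express SV40 T antigen in beta cells, the source of βTC lines, are known for switching on Igf2. ALK7, the product of Acvr1c, is a type I receptor for activin B and signals through SMAD2 and SMAD3.

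SMAD proteins can bind DNA at the letters CAGAC. The 250 bases before the RefSeq start (GRCm38.p6, mm10) are therefore shown for the 3 genes on which the results turn most, with capitals for CAGAC on either strand. For Pappa2, selected on its low counts in the hairpin lines, the window is chr1:158958176-158958425 on the minus strand. For Igfbp4, which rose with activin B in all 5 lines, it is chr11:99040994-99041243 on the plus strand. For Igfbp7, which was lower in the hairpin lines, it is chr5:77408046-77408295 on the minus strand.
Pappa2: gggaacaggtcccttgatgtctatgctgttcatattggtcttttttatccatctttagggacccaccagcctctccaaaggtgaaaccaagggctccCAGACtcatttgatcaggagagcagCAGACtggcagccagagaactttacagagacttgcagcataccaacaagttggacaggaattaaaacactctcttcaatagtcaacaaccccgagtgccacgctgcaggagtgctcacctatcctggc
Igfbp4: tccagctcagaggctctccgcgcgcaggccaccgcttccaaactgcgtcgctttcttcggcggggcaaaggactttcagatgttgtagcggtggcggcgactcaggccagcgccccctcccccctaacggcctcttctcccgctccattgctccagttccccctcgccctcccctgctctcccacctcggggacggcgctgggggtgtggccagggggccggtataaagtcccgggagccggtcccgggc
Igfbp7: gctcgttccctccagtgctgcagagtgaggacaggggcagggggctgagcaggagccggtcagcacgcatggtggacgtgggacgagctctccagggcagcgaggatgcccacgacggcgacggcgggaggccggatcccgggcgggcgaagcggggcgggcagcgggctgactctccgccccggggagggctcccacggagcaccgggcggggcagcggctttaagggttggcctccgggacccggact
The Pappa2 window held 2 matches, which start 153 and 128 bases before the RefSeq start. The Pappa2 gene range in the reference annotation, given with its levels, begins further upstream than this start. The Igfbp4 and Igfbp7 windows held 0. Among the members not shown, the Igf2r window also held 2 and that of Igf1r 1. Igf2, with several starts, had windows with 0, 1 and 2 matches, and the Igfbp3 and Igfbp5 windows held 0. Of all 32851 promoter windows of this length, 42.2% held at least 1 match and 11.7% at least 2. The Pappa2 window was 49.2% G or C, against 69.2% for Igfbp4 and 74% for Igfbp7. The table held a promoter for 8 of the 10 genes.

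Library totals ran from 18904884 to 34740789 counts. Levels are counts per 1e6 with TMM-scaled library sizes (CPM), as each library's value or mean ± standard deviation (SD) of 3 libraries. Differences are log2 fold changes ± standard error from edgeR's quasi-likelihood test over 15627 genes, and a gene is called where the Benjamini-Hochberg adjusted p was under 0.05. The beta cell genes Ins1, Ins2, Iapp and Pdx1 averaged 2816, 7414, 3732 and 284.6 CPM. The lowest of the 9 beta cell markers were Mafa and Slc2a2, at 12.47 and 2.711 CPM. Of the 5 acinar and duct markers Prss1 and Amy2a5 had 0 counts in all 30 libraries. The 9 beta cell markers summed to 11890 to 16340 CPM in sh1/2 cells with DOX alone and 20470 to 20980 in control cells, and the 4 alpha cell markers, mostly Gcg, to 164.3 to 178.6 and 56.18 to 58.92. The 2 delta cell markers summed to 3.471 to 4.731 and 0.9139 to 1.268 CPM, and the acinar and duct markers, mostly Cftr, to 6.847 to 10.42 and 1.564 to 2.335. With activin B the beta cell markers, which include Ins1 and Ins2, summed to 13440 to 15690 CPM in control and 11220 to 12930 in sh1/2 cells, and the alpha cell markers to 18.84 to 19.45 and 36.33 to 37.58. The part of these markers in the activin B and line differences was not tested, and in bulk RNA fewer cells of a type and less RNA per cell cannot be told apart. Acvr1c with DOX alone was at 165 CPM in control, 68.53 in sh2 and 55.3 in sh1/2 cells, but at 154.1 and 161.2 in the lines labelled ALK7 and ALK7-DN, so those constructs were not visible in the counts. Deviation of genes by GC content from their mean over all libraries was strongest in 3 libraries. These were sh1/2 DOX replicates 1 and 3 (Spearman -0.533 and -0.576, across genes) and control activin B replicate 2 (-0.62). The others ran from -0.341 to 0.458, so leaving out these 3 does not remove all GC deviation. Results that rest on these 3 GC-shifted libraries are also given without them. Of the sh1/2 DOX group only replicate 2 (0.205) is then left, so values that use this group rest there on 1 library. Against the mean of their own group, sh1/2 DOX replicates 1, 2 and 3 were at -0.544, 0.734 and -0.65. Within the group replicate 2 thus stood apart from the others, and which replicates are typical of sh1/2 cells was not tested.

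Per kilobase of exon, Igf2 stood far above the rest, at 845.5 CPM per kb over the 30 libraries (rank 12 of 15434 genes). Igf2r followed at 93.92 and Pappa2 at 11.04 CPM per kb. Insr averaged 5.599, Igfbp7 4.916, Igfbp4 1.022 and Igfbp5 0.4363 CPM per kb. Igf1r, the main signalling receptor for IGFs, was near the bottom at 0.1138 and Igfbp3 at 0.08568 CPM per kb. Pappa (ENSMUSG00000028370, chromosome 4, 65124174 to 65357509, plus strand), the paralog of Pappa2, had 15 counts in all and was at 0 in 21 libraries, which allows up to 0.0864 to 0.142 CPM (3 counts, counting error only). The cells thus held RNA for the ligand, its clearance receptor and 1 of the 2 proteases at far higher levels than for the IGF1 receptor.

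Pappa2 (ENSMUSG00000073530, chromosome 1, 158711727 to 158980490, minus strand, mm10, protein-coding) was at 147.1, 140.7 and 152.3 CPM in the 3 control libraries with DOX alone and at 140.7, 139 and 128.4 CPM with activin B. The sh2 libraries had 14.17, 16.45 and 16.55 CPM with DOX alone and 14.25, 12.43 and 14.16 with activin B. The sh1/2 values were 24, 17.99 and 24.32 CPM with DOX alone and 30.46, 23.79 and 27.52 with activin B. All 12 hairpin libraries lay below all 18 others, as the selection implies. Within batch 1, mean CPM in sh2 cells with activin B was 9.995-fold below control (-3.32 ± 0.11). The sh1/2 mean was 6.637-fold below with DOX alone (-2.74 ± 0.10, and -3.03 without the GC-shifted libraries) and 4.991-fold below with activin B (-2.32 ± 0.10). With activin B, Pappa2 was lower in sh2 than in sh1/2 cells (13.61 and 27.26 CPM, with no overlap) while Acvr1c was higher (42.68 and 26.72 CPM), a pair of differences that was not tested. Control cells with activin B had 100.7 CPM of Acvr1c, a gene called lower with activin B in all 5 lines (-1.05 to -0.59). With batch terms its ALK7-DN (-0.23, adjusted p = 0.371) and sh2 calls (-0.56, adjusted p = 0.0833) were lost.

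**Figure D1:**
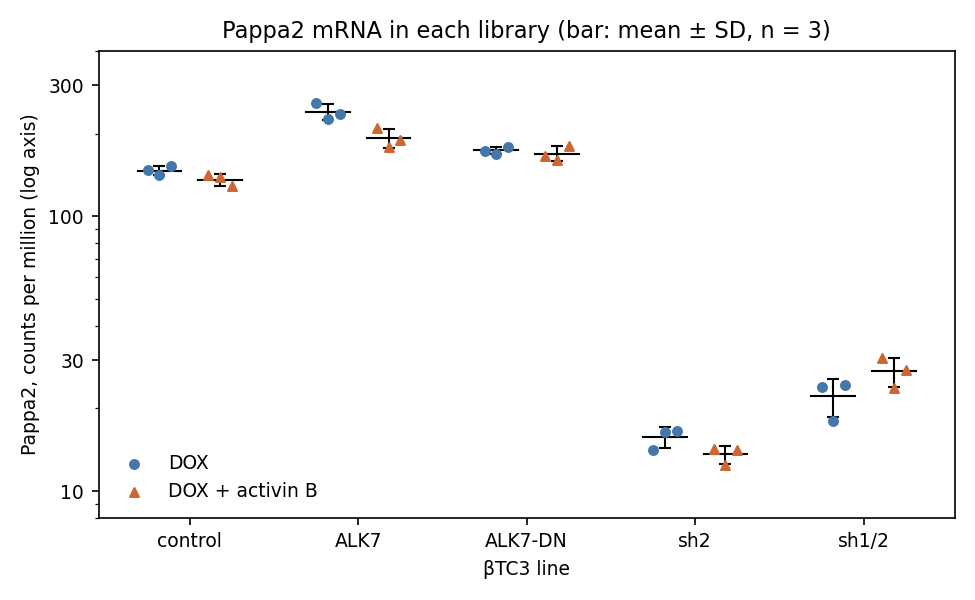
Pappa2 level in CPM (log axis) in each of the 30 libraries by βTC3 line, with separate symbols for DOX alone and DOX with activin B, and bars for mean ± SD of 3 libraries. The 12 hairpin libraries lie between 12.43 and 30.46 CPM and the 18 others between 128.4 and 258.5 CPM.

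Outside the comparisons that selected it, Pappa2 was higher in cells labelled ALK7 than in control cells. The control libraries are the same as in the selecting comparisons, so these p-values are not fully independent of the selection. Cells labelled ALK7 had 258.5, 225.9 and 235.2 CPM with DOX alone, 1.635-fold the control mean (0.71 ± 0.09, adjusted p = 7.43e-05). With activin B they had 209.2, 178.5 and 189 CPM, 1.413-fold the control mean (0.50 ± 0.09, adjusted p = 0.00169). In both arms every library labelled ALK7 was above every control library. The first difference was called under 13 of 13 alternative settings and the second under 13 of 14, the exception being the fit of only the groups compared (0.49, adjusted p = 0.0596). Cells labelled ALK7-DN had 172.8, 169 and 178.7 CPM with DOX alone, also above all control libraries, and the difference did not pass (0.24 ± 0.09, adjusted p = 0.393). By mean the order was ALK7 (239.9 CPM with DOX alone, 192.2 with activin B), ALK7-DN (173.5, 169.1), control (146.7, 136), sh1/2 with activin B (27.26), sh1/2 with DOX alone (22.11), sh2 with DOX alone (15.72) and sh2 with activin B (13.61). Neighbours that overlapped in this order were ALK7 with activin B and ALK7-DN with DOX alone, and the arms of ALK7-DN, of sh1/2 and of sh2.

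Activin B changed Pappa2 little, and in different directions. It fell in cells labelled ALK7 (-0.32 ± 0.09, adjusted p = 0.0119), where the arms did not overlap. The fall was -0.26, adjusted p = 0.0729, without ALK7 DOX replicate 1 and -0.27, adjusted p = 0.0724, without ALK7 activin B replicate 2. It rose in sh1/2 cells (0.31 ± 0.10, adjusted p = 0.0207), where the arms overlapped. Pappa2 was selected on these sh1/2 counts, so this p-value is not independent of the selection. That rise was not called without sh1/2 DOX replicate 2 (0.17, adjusted p = 0.129), sh1/2 activin B replicate 1 (0.22, adjusted p = 0.115) or 3 (0.30, adjusted p = 0.0543), or in a fit of only the groups compared (0.31, adjusted p = 0.175). Without the GC-shifted libraries the value was 0.60, and the DOX side was then only sh1/2 DOX replicate 2, the lowest of its group (17.99 CPM). The changes in control (-0.11 ± 0.09, adjusted p = 0.476), ALK7-DN (-0.037 ± 0.09, adjusted p = 0.869) and sh2 cells (-0.21 ± 0.11, adjusted p = 0.187) did not pass. With the replicate number as a block the sh2 fall passed (-0.21, adjusted p = 0.0417), and with a batch term taken from the hairpin lines the ALK7-DN value was -0.55, adjusted p = 0.0238.

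The response of Pappa2 differed between sh1/2 and control cells by 0.42 ± 0.14, adjusted p = 0.0430. The same contrast is the gap between its sh1/2-to-control differences with activin B and with DOX alone (-2.32 and -2.74). Pappa2 was selected on these values, so the p-value is not independent of that selection. Without the GC-shifted libraries, with only sh1/2 DOX replicate 2 left of its group, the response difference was 0.73. It was not called without the low-count filter (0.43, adjusted p = 0.0569) or in a fit of only the 4 groups (0.41, adjusted p = 0.182). Of 12 fits that each left out 1 library, 3 kept the call. It was lost without control DOX replicate 1 (0.40) or 3 (0.39), control activin B replicate 2 (0.43) or 3 (0.38), sh1/2 DOX replicate 1 (0.49), 2 (0.28) or 3 (0.49), or sh1/2 activin B replicate 1 (0.33) or 3 (0.41). Between cells labelled ALK7 and control cells the responses of Pappa2 differed by -0.21 ± 0.13, adjusted p = 0.539.

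The genes whose group means followed Pappa2 most closely over the 10 groups were Cyp4x1, Ncoa3, Susd4, Mapt and Kcnh1, by Pearson correlation of log2 CPM (pseudocount 2) across 11027 genes. The correlations were 0.976, 0.972, 0.965, 0.958 and 0.957, a description over means that share their libraries. The Pappa2 means split into hairpin groups (13.61 to 27.26 CPM) and the rest (136 to 239.9 CPM), the loss it was selected on. A gene that follows this split ranks high, and shared regulation was not tested. Mapt, which encodes the microtubule protein tau, had 82.39 ± 2.79 CPM in control and 41.1 ± 1.06 CPM in sh1/2 cells with DOX alone. Cyp4x1, a cytochrome P450 gene, ranged over group means of 8.311 to 21.72 CPM, Susd4 over 3.993 to 10.73 and the potassium channel gene Kcnh1 over 1.874 to 6.05. Ncoa3, a nuclear receptor coactivator gene, spanned only 68.05 to 79.3 CPM, so closeness in pattern does not mean a change of like size. With a pseudocount of 0.5, Mapt was replaced among the 5 by Nrcam.

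Igf2 (ENSMUSG00000048583, chromosome 7, 142650766 to 142666816, minus strand), the fetal growth factor gene, took 0.377% to 0.570% of all counts and was lower with activin B than without it in each line. In control cells it went from 5768, 5144 and 5358 CPM to 4529, 3744 and 4179 (-0.39 ± 0.07, adjusted p = 0.000268, and -0.32, adjusted p = 0.00400, without the GC-shifted libraries). Cells labelled ALK7 went from 5379, 5016 and 5293 CPM to 4604, 4006 and 4088 (-0.30 ± 0.07, adjusted p = 0.00232). The arms did not overlap in any of the 5 lines. The change was -0.30 ± 0.07, adjusted p = 0.00446, in ALK7-DN and -0.31 ± 0.07, adjusted p = 0.00295, in sh2 cells, and with batch terms -0.42, adjusted p = 0.0179, and -0.22, adjusted p = 0.503. Igf2 in sh1/2 cells went from 5055, 5216 and 5166 CPM to 4740, 4273 and 4598, which narrowly missed the threshold (-0.18 ± 0.07, adjusted p = 0.0512). This change passed with the replicate block (-0.18, adjusted p = 0.00442), a GC correction (-0.48, adjusted p = 3.69e-05), size factors of DESeq2 (-0.19, adjusted p = 0.0438) or without sh1/2 activin B replicate 1 (-0.21, adjusted p = 0.0492), and was -0.20, adjusted p = 0.264, without the GC-shifted libraries. Between lines Igf2 passed in 0 of 6 comparisons (-0.076 to 0.13), with calls for sh1/2 with activin B when control activin B replicate 1 was left out (0.20, adjusted p = 0.0489) and with a replicate block shared by all lines (0.13, adjusted p = 0.0233).

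The Igf2 responses of sh1/2 and control cells differed by 0.20 ± 0.10, adjusted p = 0.139. That difference passed with the replicate block (0.21, adjusted p = 0.0213) and without control activin B replicate 1 (0.27, adjusted p = 0.0463), and took the other sign with the block and a GC correction together (-0.17, adjusted p = 0.0443). Without the GC-shifted libraries it was 0.12, adjusted p = 1.00. Igf2os, the antisense gene of the locus, shares 98 exon bases with Igf2 and also fell in all 5 lines (-1.22 to -0.54). The fall was -1.12 ± 0.07, adjusted p = 1.12e-11, in control cells and -0.54 ± 0.07, adjusted p = 3.67e-06, in sh1/2 cells. The strand setting of the counting was not given in the sources used here, so reads of shared bases cannot be told apart. Gm49394, annotated over 62.8% of the Igf2 exon bases, was not analysed here. H19, the imprinted neighbour of Igf2, reached at most 0.0639 CPM in a group mean.

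Igf1r (ENSMUSG00000005533, chromosome 7, 67952827 to 68233668, plus strand) had only 28 to 94 counts per library and rose with activin B in 3 lines. Control cells had 1.78, 1.498 and 1.648 CPM without and 2.53, 2.828 and 2.124 with activin B (0.60 ± 0.19, adjusted p = 0.0273). Cells labelled ALK7 had 1.579, 1.4 and 1.415 without and 2.835, 2.343 and 2.759 with it (0.85 ± 0.19, adjusted p = 0.00147). The sh1/2 libraries had 1.591, 1.463 and 1.711 without and 3.055, 2.569 and 2.624 with it (0.80 ± 0.19, adjusted p = 0.00282, and 0.91, adjusted p = 0.0466, without the GC-shifted libraries). The arms did not overlap in these lines. The control call was lost without control DOX replicate 2 (0.54, adjusted p = 0.105) or 3 (0.61, adjusted p = 0.0684), control activin B replicate 1 (0.59, adjusted p = 0.0607) or 2 (0.51, adjusted p = 0.112), and without the GC-shifted libraries (0.51, adjusted p = 0.115), without the low-count filter (0.60, adjusted p = 0.0552) or in a fit of only the groups compared (0.60, adjusted p = 0.0571). In sh2 cells the change was 0.54 ± 0.20, adjusted p = 0.0574, and it passed without sh2 DOX replicate 2 (0.68, adjusted p = 0.0423) or sh2 activin B replicate 2 (0.69, adjusted p = 0.0263). In ALK7-DN cells it was -0.23 ± 0.19, adjusted p = 0.523, and batch terms gave -0.29 in sh2 and -0.48 in ALK7-DN cells, so the sh2 value turned its sign. Between lines Igf1r passed in 0 of 6 comparisons (-0.35 to 0.14).

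Igf2r (ENSMUSG00000023830, chromosome 17, 12682406 to 12769664, minus strand), the clearance receptor, fell with activin B in control cells and in cells labelled ALK7. It went from 939.1, 896 and 935.2 CPM to 858.5, 730.9 and 784.9 in control cells (-0.22 ± 0.07, adjusted p = 0.0216). In cells labelled ALK7 it went from 948.4, 852.9 and 887.2 CPM to 770.9, 670.8 and 735.8 (-0.30 ± 0.07, adjusted p = 0.00142). The arms did not overlap in either line. The control call was lost without control DOX replicate 1 (-0.20, adjusted p = 0.0867) or 3 (-0.21, adjusted p = 0.0668), control activin B replicate 2 (-0.17, adjusted p = 0.133) or 3 (-0.22, adjusted p = 0.0620), and without the GC-shifted libraries (-0.17, adjusted p = 0.118), without the low-count filter (-0.22, adjusted p = 0.0514) or in a fit of only the groups compared (-0.22, adjusted p = 0.0903). The changes in ALK7-DN (-0.16 ± 0.07, adjusted p = 0.141), sh2 (-0.088 ± 0.07, adjusted p = 0.422) and sh1/2 cells (-0.14 ± 0.07, adjusted p = 0.117) did not pass, though the first and last did with the replicate block (-0.16, adjusted p = 0.0466, and -0.14, adjusted p = 0.0445). Airn, the antisense transcript of this imprinted locus, shares 0 exon bases with Igf2r and fell in all 5 lines (-0.61 to -0.27, adjusted p = 1.80e-06 to 0.0164).

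Against the control line, Igf2r was higher in sh1/2 cells with activin B, where 947.3, 883.7 and 912.2 CPM lay above all 3 control libraries (0.21 ± 0.07, adjusted p = 0.0198). This call was lost without the GC-shifted libraries (0.16, adjusted p = 0.119), without control activin B replicate 2 (0.15, adjusted p = 0.129) or 3 (0.20, adjusted p = 0.0526) and without sh1/2 activin B replicate 1 (0.18, adjusted p = 0.0767), and in a fit of only the groups compared (0.21, adjusted p = 0.0696). With DOX alone the sh1/2 difference was 0.12 ± 0.07, adjusted p = 0.163.

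Insr (ENSMUSG00000005534, chromosome 8, 3122061 to 3279617, minus strand), the insulin receptor, was not called with activin B in any line (-0.049 to 0.19, adjusted p = 0.0801 to 0.639). Its change in sh2 cells (0.19 ± 0.08) passed without sh2 DOX replicate 3 (0.25, adjusted p = 0.0388) or sh2 activin B replicate 2 (0.24, adjusted p = 0.0481), and that in sh1/2 cells (-0.049 ± 0.08) without sh1/2 DOX replicate 2 (-0.17, adjusted p = 0.0148). Without the GC-shifted libraries the sh1/2 change took the other sign (0.24, adjusted p = 0.0522). The responses of sh1/2 and control cells differed by -0.19 ± 0.11, adjusted p = 0.185, with -0.32, adjusted p = 0.00243, without sh1/2 DOX replicate 2 and 0.12, adjusted p = 1.00, without the GC-shifted libraries. Insr was lower in sh1/2 than in control cells. With activin B the sh1/2 libraries had 66.77, 66.77 and 66.85 CPM against 87.47, 90.92 and 85.14 in control cells (-0.40 ± 0.08, adjusted p = 0.000215), a call that held under 14 of 14 alternative settings. With DOX alone they had 74.62, 56.86 and 76.07 against 77.44, 78.82 and 82.46 CPM (-0.20 ± 0.08, adjusted p = 0.0365). The low sh1/2 value with DOX alone was that of replicate 2, which was not GC-shifted against all libraries but stood apart in GC within its group. Without it the difference was -0.079, adjusted p = 0.270, and without the GC-shifted libraries -0.49, adjusted p = 5.93e-05. It also missed the threshold without control DOX replicate 1 (-0.21, adjusted p = 0.0716), 2 (-0.21, adjusted p = 0.0613) or 3 (-0.18, adjusted p = 0.117), without the low-count filter (-0.21, adjusted p = 0.0539), with size factors of DESeq2 (-0.20, adjusted p = 0.0517) or in a fit of only the groups compared (-0.19, adjusted p = 0.293).

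**Figure D2:**
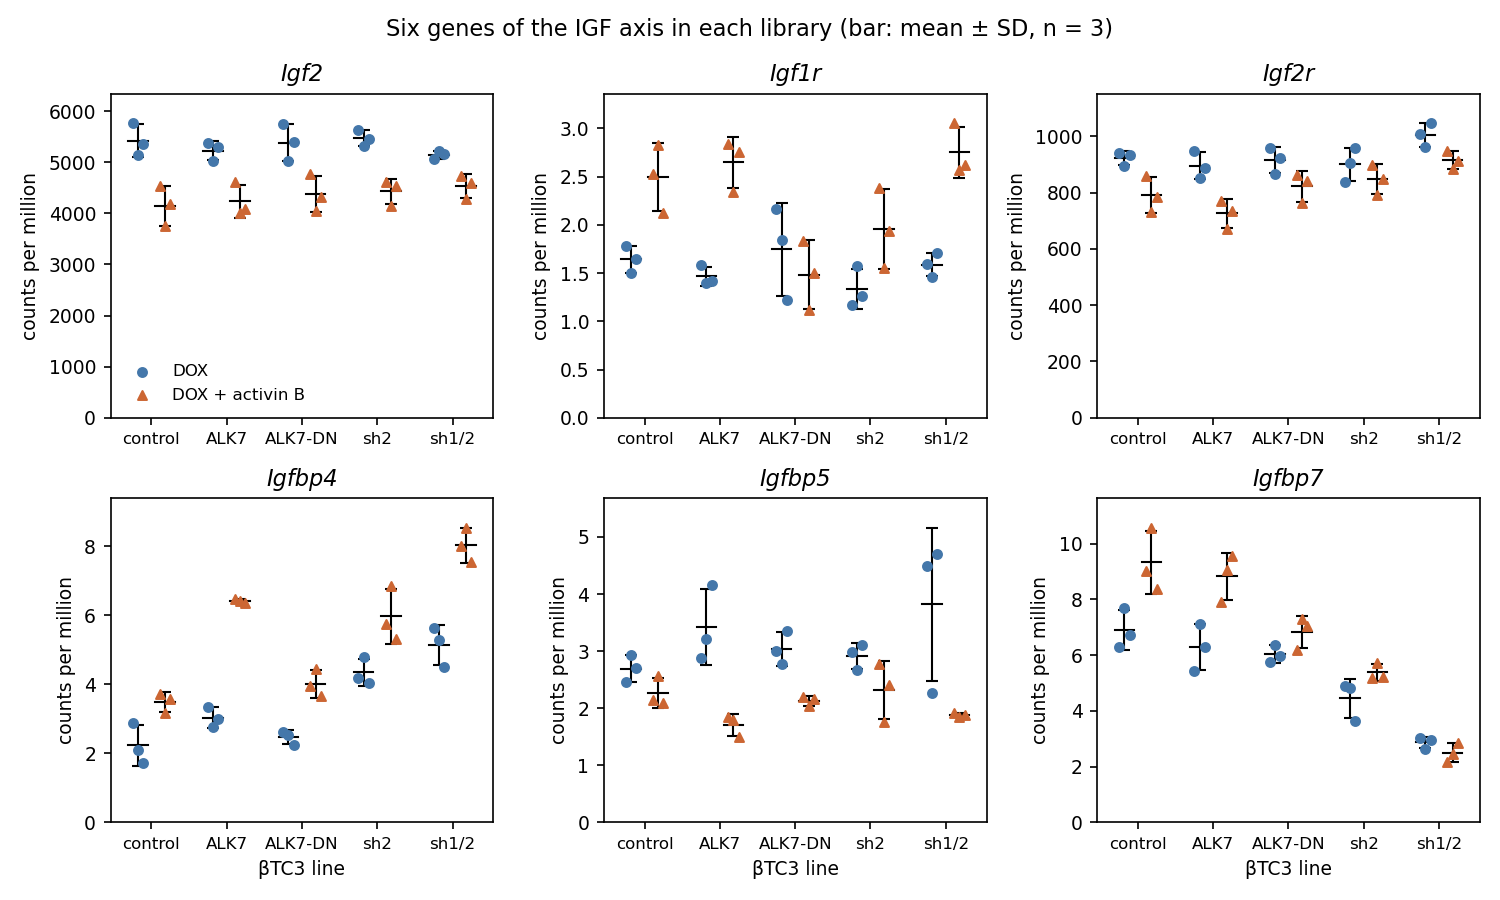
Levels in CPM of Igf2, Igf1r, Igf2r, Igfbp4, Igfbp5 and Igfbp7 in each library by βTC3 line, with separate symbols for DOX alone and DOX with activin B, and bars for mean ± SD of 3 libraries. Igfbp4 is higher with activin B in every line, from a mean of 2.236 to 3.489 CPM in control and from 5.14 to 8.026 CPM in sh1/2 cells.

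Igfbp4 (ENSMUSG00000017493, chromosome 11, 99041244 to 99054392, plus strand), whose protein is the classic substrate of PAPP-A, rose with activin B in all 5 lines, alone among the 9 genes. Control cells had 2.886, 2.091 and 1.733 CPM without and 3.722, 3.171 and 3.576 with activin B (0.65 ± 0.14, adjusted p = 0.00157). Cells labelled ALK7 had 3.355, 2.765 and 2.988 without and 6.466, 6.419 and 6.354 with it (1.08 ± 0.14, adjusted p = 1.01e-06). The sh1/2 libraries had 5.64, 5.291 and 4.49 without and 7.996, 8.545 and 7.536 with it (0.64 ± 0.13, adjusted p = 0.000752). The arms did not overlap in any of the 5 lines. The change was 0.70 ± 0.14, adjusted p = 0.000666, in ALK7-DN and 0.46 ± 0.13, adjusted p = 0.0162, in sh2 cells, where batch terms gave 0.52, adjusted p = 0.0974, and 0.50, adjusted p = 0.351. The sh2 call was lost without sh2 DOX replicate 1 (0.43, adjusted p = 0.0644) or 3 (0.41, adjusted p = 0.0612) or sh2 activin B replicate 2 (0.35, adjusted p = 0.117), and the control call in a fit of only the groups compared (0.65, adjusted p = 0.0799). Without the GC-shifted libraries the control and sh1/2 values were 0.71, adjusted p = 0.00179, and 0.61, adjusted p = 0.0441.

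Igfbp4 was also higher than in control cells in both hairpin lines. With activin B the difference was 0.77 ± 0.14, adjusted p = 0.000359, in sh2 and 1.198 ± 0.13, adjusted p = 1.59e-07, in sh1/2 cells, and with DOX alone 1.21 ± 0.14, adjusted p = 3.84e-07, in sh1/2 cells. In cells labelled ALK7 it was 0.87 ± 0.13, adjusted p = 0.000217, with activin B. These 4 differences were called under each of the 14 alternative settings run for them. With DOX alone the line labelled ALK7 differed by 0.45 ± 0.15, adjusted p = 0.125, with a call without control DOX replicate 1 (0.65, adjusted p = 0.0218) or with a GC correction (0.50, adjusted p = 0.0391). Igfbp4 was thus above control in the hairpin lines, where Pappa2 was low by selection. In cells labelled ALK7 with activin B both genes were above control. With activin B, sh1/2 cells had more than sh2 cells of both Pappa2 (27.26 and 13.61 CPM) and Igfbp4 (8.026 and 5.971 CPM). A relation between these genes was not tested.

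Igfbp5 (ENSMUSG00000026185, chromosome 1, 72857932 to 72874884, minus strand), a substrate of both proteases, fell with activin B in cells labelled ALK7, from 2.881, 3.219 and 4.167 CPM to 1.847, 1.797 and 1.489 (-0.995 ± 0.20, adjusted p = 0.000507). The sh1/2 libraries went from 4.483, 2.272 and 4.704 CPM to 1.918, 1.843 and 1.884 (-1.01 ± 0.20, adjusted p = 0.000513). There the high values were those of DOX replicates 1 and 3, and without the GC-shifted libraries the change was -0.27, adjusted p = 0.578. In a fit of only the groups compared it was -0.996, adjusted p = 0.0612. The changes in control (-0.25 ± 0.20, adjusted p = 0.432), ALK7-DN (-0.51 ± 0.20, adjusted p = 0.0856) and sh2 cells (-0.34 ± 0.20, adjusted p = 0.275) did not pass, and a batch term turned the ALK7-DN value to 0.16. The responses of sh1/2 and control cells differed by -0.75 ± 0.28, adjusted p = 0.0600. This was -0.71, adjusted p = 0.0478, with the replicate block, -1.03, adjusted p = 0.000936, without sh1/2 DOX replicate 2 and 0.084, adjusted p = 1.00, without the GC-shifted libraries. Between lines Igfbp5 passed in 0 of 6 comparisons. The sh1/2 difference with DOX alone was 0.49 ± 0.20, adjusted p = 0.0561, with 0.76, adjusted p = 0.000418, without sh1/2 DOX replicate 2 and -0.26, adjusted p = 0.461, without the GC-shifted libraries.

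Igfbp7 (ENSMUSG00000036256, chromosome 5, 77349240 to 77408041, minus strand), which encodes a secreted protein with low affinity for IGFs, was lower in the hairpin lines. With activin B it was at 5.196, 5.719 and 5.232 CPM in sh2 cells (-0.79 ± 0.12, adjusted p = 0.000102, against control) and at 2.178, 2.457 and 2.86 CPM in sh1/2 cells (-1.90 ± 0.13, adjusted p = 3.89e-11), with control libraries at 9.014, 10.58 and 8.39. With DOX alone sh1/2 cells had 3.037, 2.646 and 2.94 CPM against 6.301, 7.701 and 6.72 (-1.27 ± 0.13, adjusted p = 5.47e-08). No hairpin library overlapped with control, and these 3 differences were called under each of 14 alternative settings. Igfbp7 shares 85 exon bases, 7.0% of its own, with Polr2b on the other strand, an RNA polymerase subunit gene at 207.5 to 238.3 CPM in group means. Reads of those bases cannot be told apart, and Polr2b differed by -0.20 ± 0.07, adjusted p = 0.0265, between sh1/2 and control cells with activin B.

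With activin B, Igfbp7 rose in control cells, from the values above (0.43 ± 0.12, adjusted p = 0.0137). In cells labelled ALK7 it went from 5.446, 7.104 and 6.29 CPM to 7.9, 9.051 and 9.549 (0.49 ± 0.12, adjusted p = 0.00381), or 0.28, adjusted p = 0.315, with a GC correction. The control call was lost without control DOX replicate 1 (0.38, adjusted p = 0.0711) or 3 (0.41, adjusted p = 0.0524), control activin B replicate 2 (0.33, adjusted p = 0.0922) or the GC-shifted libraries (0.33, adjusted p = 0.0918), and in a fit of only the groups compared (0.43, adjusted p = 0.0823). The changes in ALK7-DN (0.18 ± 0.12, adjusted p = 0.402), sh2 (0.27 ± 0.13, adjusted p = 0.148) and sh1/2 cells (-0.20 ± 0.14, adjusted p = 0.252) did not pass. Batch terms gave 0.65, adjusted p = 0.0356, in ALK7-DN and 0.023, adjusted p = 0.996, in sh2 cells, and a GC correction -0.63, adjusted p = 0.0446, in sh1/2 cells. The responses of sh1/2 and control cells differed by -0.63 ± 0.18, adjusted p = 0.0341, and by -0.41, adjusted p = 0.976, without the GC-shifted libraries. That call was also lost without the low-count filter (-0.62, adjusted p = 0.0553), in a fit of only the 4 groups (-0.64, adjusted p = 0.181), and without control DOX replicate 1 (-0.58) or 3 (-0.61), control activin B replicate 2 (-0.53), sh1/2 DOX replicate 1 (-0.58) or 3 (-0.61), or sh1/2 activin B replicate 1 (-0.54) or 2 (-0.62).

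Igfbp3 (ENSMUSG00000020427, chromosome 11, 7206086 to 7213923, minus strand), a substrate of PAPP-A2, had 0 to 20 counts per library. Its group means ran from 0.1099 CPM in sh2 cells with DOX alone to 0.5199 in cells labelled ALK7 with activin B. The largest activin B change was 1.204 ± 0.58, adjusted p = 0.104, in sh1/2 cells. Igfbp3 passed in 0 of 13 comparisons with edgeR, and how large a change could be called at these counts was not tested.

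**Figure D3:**
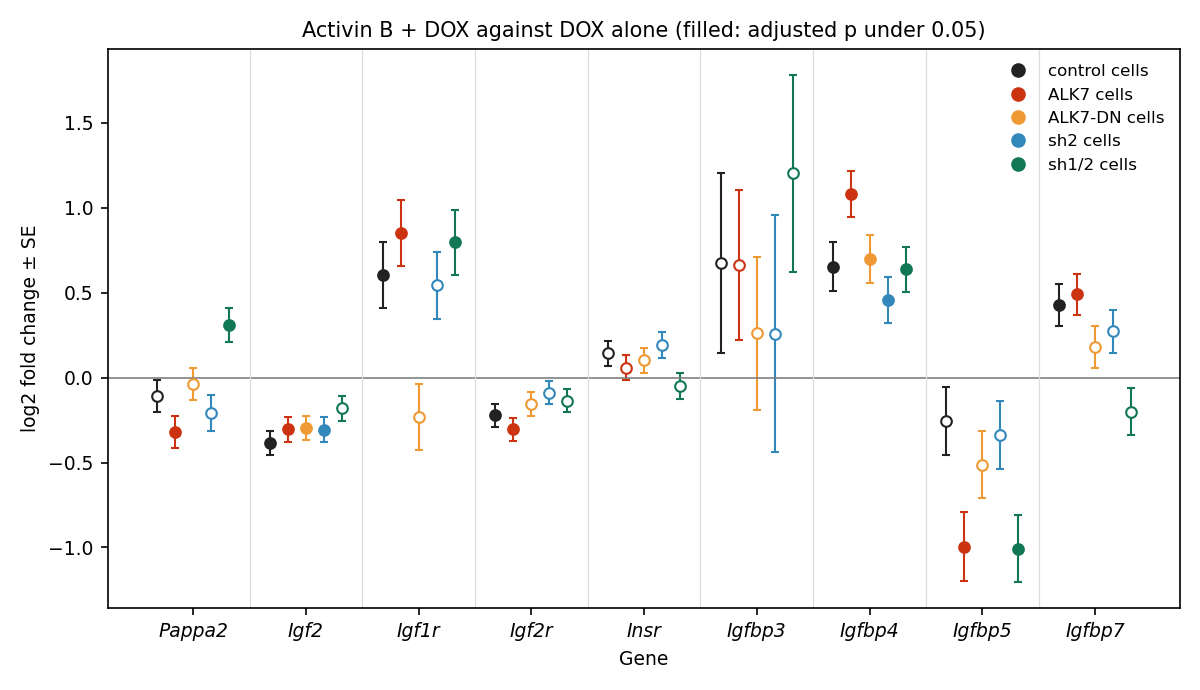
Log2 fold change ± standard error of the 9 tested genes for DOX with activin B against DOX alone, 1 point per line, filled where the adjusted p was under 0.05. Igfbp4 is filled in all 5 lines (0.46 to 1.08) and Igf2 in 4 of them, while Pappa2 lies between -0.32 and 0.31.

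Counted over the 9 tested genes, activin B raised 3 (Igf1r, Igfbp4, Igfbp7) and lowered 2 (Igf2, Igf2r) in control cells, where 10.7% of all tested genes were called higher and 9.66% lower. In cells labelled ALK7 it raised the same 3 and lowered 4 (Pappa2, Igf2, Igf2r, Igfbp5), against 13% and 12.3% of all genes. Igfbp4 rose and Igf2 fell in ALK7-DN cells (8.48% and 7.62% of all genes) and in sh2 cells (10.7% and 8.91%). In sh1/2 cells 3 rose (Pappa2, Igf1r, Igfbp4) and 1 fell (Igfbp5), against 17.5% and 19.1%. The Pappa2 call among them draws on counts that selected this gene, and without it 2 rose. The control count of 5 was 2 without the GC-shifted libraries, 3 without control DOX replicate 1, and 2 without control DOX replicate 3 or control activin B replicate 2. The sh2 count of 2 was 1 without sh2 DOX replicate 1 and 0 with a batch term. The median change of the 9 genes was -0.049 to 0.19 in the 5 lines and that of all genes -0.011 to 0.0021.

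The response differed from that of control cells for 0 of the 9 genes in cells labelled ALK7 with edgeR, which called 0.0192% of all genes higher and 0.00640% lower. DESeq2 also called 0, and 2 had an unadjusted p under 0.05. It differed in sh1/2 cells for Pappa2 (higher) and Igfbp7 (lower), against 8.49% and 9.22% of all genes. The Pappa2 call draws on the counts that selected this gene. With the replicate block the count of 2 became 4, with Igf2 and Igfbp5 added. It was 0 without control DOX replicate 1 or 3, control activin B replicate 2, sh1/2 DOX replicate 1 or 3, or sh1/2 activin B replicate 1, and 1 without control activin B replicate 3 or sh1/2 activin B replicate 2 or 3.

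Between lines with DOX alone, Pappa2 was higher in cells labelled ALK7, 1 of 9 genes against 1.03% of all genes higher and 0.953% lower, and the count was 2 without control DOX replicate 1. In ALK7-DN cells edgeR called 0 of 9 (0.378% and 0.589% of all genes), DESeq2 0, and 1 had an unadjusted p under 0.05. In sh1/2 cells, of the 8 genes other than Pappa2, Igfbp4 was higher and Insr and Igfbp7 were lower (19.4% and 18.6% of all genes). With activin B, Pappa2 and Igfbp4 were higher in cells labelled ALK7 (2.09% and 2.44%). Of the 8, Igfbp4 was higher and Igfbp7 lower in sh2 cells (3.06% and 6.18%). In sh1/2 cells Igf2r and Igfbp4 were higher and Insr and Igfbp7 lower (16.9% and 18.3%). These comparisons share their control libraries, which also served to select Pappa2. Without Pappa2, the higher calls in cells labelled ALK7 were 0 with DOX alone and 1 with activin B.

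**Figure D4:**
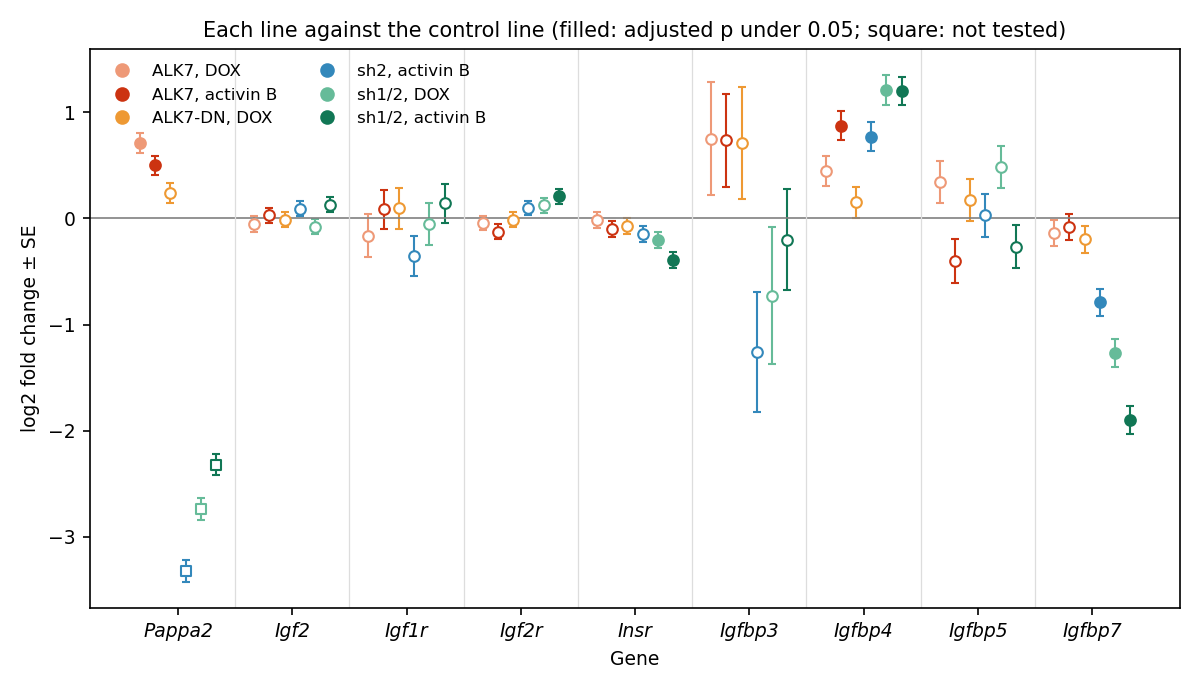
Log2 fold change ± standard error of the 9 tested genes in each line against the control line under the same treatment, filled where the adjusted p was under 0.05. Squares are Pappa2 in the hairpin lines, given without a test (-3.32 to -2.32), where Igfbp7 lies at -1.90 to -0.79 and Igfbp4 at 0.77 to 1.21.

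Beyond these genes, a list of 56 ligands, binding proteins, protease inhibitors, proteases, receptors with adaptors and genes of the PI3-kinase, AKT and mTOR arm was followed, of which 46 passed the low-count filter. Activin B raised 9 and lowered 8 of them in control cells (10.7% and 9.66% of all tested genes), 10 and 7 in cells labelled ALK7 (13% and 12.3%), 10 and 5 in ALK7-DN (8.48% and 7.62%), 10 and 6 in sh2 (10.7% and 8.91%) and 15 and 8 in sh1/2 cells (17.5% and 19.1%). The 23 calls in sh1/2 cells were 8 without the GC-shifted libraries and 15 without sh1/2 DOX replicate 1, and the 16 in sh2 cells were 6 with a batch term. The median change of the 46 was 0.0032 to 0.081. Against control with DOX alone, 2 were higher and 1 lower in cells labelled ALK7 (1.03% and 0.953% of all genes) and 12 and 14 in sh1/2 cells (19.4% and 18.6%), where the 26 calls were 15 without the GC-shifted libraries. In ALK7-DN cells edgeR and DESeq2 called 0, with 5 at an unadjusted p under 0.05. With activin B, 2 were higher and 2 lower in cells labelled ALK7 (2.09% and 2.44%), 2 and 5 in sh2 (3.06% and 6.18%) and 9 and 7 in sh1/2 cells (16.9% and 18.3%).

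Among ligands, the insulin genes Ins1 and Ins2 fell with activin B in 4 lines, in control cells by -0.70 ± 0.11, adjusted p = 2.60e-05, and -0.94 ± 0.17, adjusted p = 0.000140. Their changes in sh1/2 cells were -0.24, adjusted p = 0.0853, and -0.14, adjusted p = 0.525. Their responses in sh1/2 and control cells differed by 0.46 and 0.80. Without the GC-shifted libraries, with 1 sh1/2 DOX library left, they differed by only 0.15 and 0.16, and the control changes were -0.58 and -0.78. With a batch term the sh2 calls were lost (-0.62, adjusted p = 0.0579, and -0.77, adjusted p = 0.155) and the ALK7-DN values were -1.08 and -1.57. Among binding proteins, Igfbpl1, an IGFBP-like gene, went from 1.299, 1.359 and 1.226 CPM to 13.78, 11.44 and 13.31 in control cells (3.31 ± 0.14, adjusted p = 2.91e-15) and rose in the other 4 lines (2.41 to 3.28). Igfbp2, which encodes a further IGF binding protein, went from 12.51, 9.756 and 12.55 CPM to 5.031, 4.156 and 4.496 in control cells (-1.34 ± 0.20, adjusted p = 1.10e-05). It fell in ALK7, ALK7-DN and sh2 cells too (-1.24 to -0.82). In sh1/2 cells, at 3.577 ± 1.24 CPM with DOX alone, the change was 0.016 ± 0.20, adjusted p = 0.961. Batch terms gave -0.64, adjusted p = 0.435, in sh2 and -1.99, adjusted p = 0.000182, in ALK7-DN cells. The responses of Igfbp2 in sh1/2 and control cells differed by 1.36, and by 0.86 without the GC-shifted libraries, with 1 sh1/2 DOX library left. Stc1 and Stc2 encode stanniocalcins, inhibitors of the PAPP-A proteases. Stc1 fell in sh1/2 cells (-0.44 ± 0.12, adjusted p = 0.00794), which was lost without sh1/2 DOX replicate 3 (-0.34, adjusted p = 0.0672), sh1/2 activin B replicate 2 (-0.33, adjusted p = 0.0616) or the GC-shifted libraries (-0.34, adjusted p = 0.259), and Stc2 passed in 0 of the 5 lines.

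Adam9, a metalloprotease gene, fell with activin B in all 5 lines. It went from 301.7, 314.1 and 300.6 CPM to 199, 215.4 and 204.8 in control cells (-0.57 ± 0.05, adjusted p = 5.23e-09), and the others changed by -0.73 to -0.53. Insrr, the insulin receptor-related receptor, rose in all 5, from 84.84, 70.25 and 73.54 CPM to 145.5, 106.7 and 134.7 in control cells (0.76 ± 0.09, adjusted p = 1.03e-06) and by 1.31 ± 0.10 in sh1/2 cells. Grb10 and Grb14 encode related adaptors that restrain the insulin and IGF1 receptors, and they moved in opposite directions. Grb10 went from 1.202, 0.8363 and 0.803 CPM to 4.769, 3.428 and 3.434 in control cells (2.05 ± 0.18, adjusted p = 4.78e-09) and rose in the other 4 lines (1.11 to 1.93). Grb14 fell in all 5 (-0.46 to -0.36), with the ALK7-DN call lost without ALK7-DN DOX replicate 2 (-0.30, adjusted p = 0.0600) or ALK7-DN activin B replicate 1 (-0.30, adjusted p = 0.0542) and the sh1/2 call without the GC-shifted libraries (-0.40, adjusted p = 0.0553). With batch terms the ALK7-DN (-0.34, adjusted p = 0.117) and sh2 calls (-0.38, adjusted p = 0.266) of Grb14 were lost. The adaptor gene Shc1 (0.27 to 0.40) and the transcription factor gene Foxo3 (0.24 to 0.45) rose in all 5 lines, the Shc1 call in sh1/2 cells being lost without the GC-shifted libraries (0.26, adjusted p = 0.0982) and those in ALK7-DN (0.26, adjusted p = 0.107) and sh2 cells (0.35, adjusted p = 0.103) with batch terms. The PI3-kinase subunit gene Pik3r3 rose in 4 lines (0.30 to 0.39) and was -0.063, adjusted p = 0.561, in sh1/2 cells. Its ALK7-DN call was lost without ALK7-DN DOX replicate 1 (0.27, adjusted p = 0.0535) or ALK7-DN activin B replicate 3 (0.27, adjusted p = 0.0549). Its sh2 call was lost with a batch term (0.32, adjusted p = 0.274). The responses of Pik3r3 in sh1/2 and control cells differed by -0.44, and by -0.15 without the GC-shifted libraries, with 1 sh1/2 DOX library left.

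**Figure D5:**
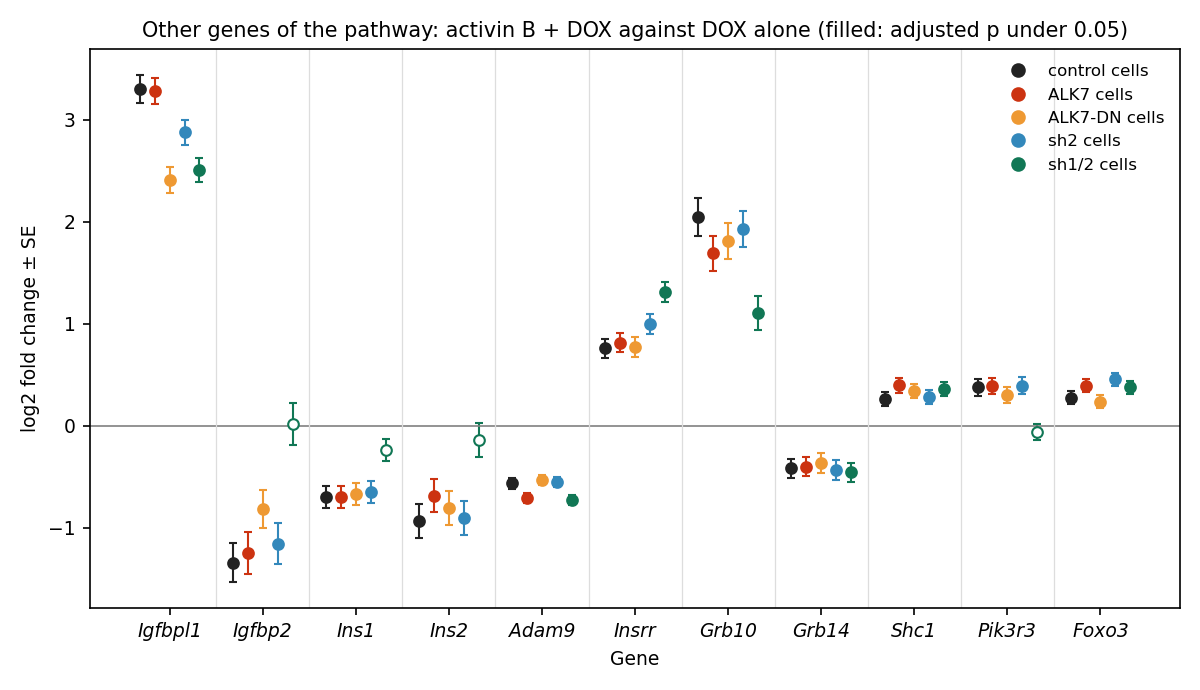
Log2 fold change ± standard error for DOX with activin B against DOX alone of 11 other genes of the list, each called in one direction in at least 4 lines, 1 point per line, filled where the adjusted p was under 0.05. Igfbpl1 and Grb10 rise most, and the open points of Igfbp2, Ins1, Ins2 and Pik3r3 are those of sh1/2 cells.

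Against the control line, Igfbpl1 was higher in sh1/2 cells with DOX alone (2.83-fold, adjusted p = 1.74e-08) and in sh2 (0.77 ± 0.11, adjusted p = 3.82e-05) and sh1/2 cells with activin B (0.70 ± 0.11, adjusted p = 2.26e-05). It was also higher in cells labelled ALK7 (0.91 ± 0.15, adjusted p = 0.000841, with DOX alone, 0.89 ± 0.11, adjusted p = 1.96e-05, with activin B). Igfbp2 was lower in sh1/2 cells with DOX alone (-1.69 ± 0.20, adjusted p = 4.53e-07) and in cells labelled ALK7 with DOX alone (-0.94 ± 0.19, adjusted p = 0.00813) and with activin B (-0.85 ± 0.21, adjusted p = 0.0162). The ALK7 calls of Igfbp2 were lost without ALK7 DOX replicate 3 (-0.84, adjusted p = 0.0649), and with activin B without ALK7 replicate 2 (-0.89, adjusted p = 0.0506) or 3 (-0.74, adjusted p = 0.0799) or control replicate 1 (-0.77, adjusted p = 0.0518). Insrr was higher in cells labelled ALK7 (0.52 ± 0.09, adjusted p = 0.00281, with DOX alone, 0.57 ± 0.09, adjusted p = 0.000438, with activin B). Adam9 was lower there with activin B (-0.20 ± 0.05, adjusted p = 0.0265), a call lost without the GC-shifted libraries (-0.17, adjusted p = 0.0680), control activin B replicate 2 (-0.16) or 3 (-0.20) or ALK7 activin B replicate 1 (-0.21), 2 (-0.17) or 3 (-0.21).

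Grb10 was higher in sh1/2 cells with DOX alone (1.17 ± 0.19, adjusted p = 3.70e-05, or 0.69, adjusted p = 0.0494, without the GC-shifted libraries) and in sh2 cells with activin B (0.63 ± 0.16, adjusted p = 0.0111), the latter call being lost without control activin B replicate 2 (0.55, adjusted p = 0.0626) or 3 (0.55, adjusted p = 0.0710). Ins2 was lower in sh1/2 cells with DOX alone (-0.77 ± 0.17, adjusted p = 0.000732), or -0.30, adjusted p = 0.131, without the GC-shifted libraries. In sh2 cells with activin B, Stc1 was lower (-0.53 ± 0.12, adjusted p = 0.00598), lost without sh2 activin B replicate 2 (-0.44, adjusted p = 0.0534). The adaptor gene Irs1 was lower there too (-0.28 ± 0.09, adjusted p = 0.0390), a call lost without the GC-shifted libraries (-0.29, adjusted p = 0.0591), control activin B replicate 1 (-0.26), 2 (-0.29) or 3 (-0.30) or sh2 activin B replicate 2 (-0.27) or 3 (-0.25). In sh1/2 cells with activin B the AKT inhibitor gene Trib3 was higher (0.64 ± 0.15, adjusted p = 0.00231) and the insulin-degrading protease gene Ide lower (-0.48 ± 0.06, adjusted p = 9.57e-07). Socs2, a feedback inhibitor of cytokine signalling, was lower there (-0.62 ± 0.17, adjusted p = 0.00558), a call lost without control activin B replicate 2 (-0.44, adjusted p = 0.0619) or the GC-shifted libraries (-0.44, adjusted p = 0.0587).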

How the data were processed

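Poly(A) RNA of 30 libraries was sequenced, 3 per group of line and treatment. Per the submitters' processing notes, the authors used bcl2fastq 2.17, cutadapt 1.4.2, HISAT2, mm10 and featureCounts 1.4.4, and deposited raw read counts per gene. The strand setting and the handling of multiply matching reads are not given in the sources used here. All 30 sample files equalled the series table, with 18904884 to 34740789 counts per library. The normalized table was not used.

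Counts were filtered with filterByExpr (minimum count 10, 15627 genes left), TMM-scaled and tested with edgeR 4.0.16 in R 4.3.3 by the quasi-likelihood test, over 10 group means and all 30 libraries. Benjamini-Hochberg adjustment was made within each of 13 comparisons: activin B in each line, the ALK7 and sh1/2 responses minus control, and lines against control under the same treatment and batch. A simulation on the same 15627 genes for the control activin B comparison recovered 99 of 100 genes changed 2-fold and 64 of 100 changed 1.5-fold, with 9 false calls. It changed only genes with higher counts, gave all genes the same dispersion and held no replicate, GC or batch effect. Its figures therefore do not cover low-count genes or the GC and replicate deviations of the real libraries. Same-numbered libraries of the arms of a line deviated together (15 of 15 correlations over 0.1, 0.102 to 0.492), so the replicate number within a line was tried as a block. Other alternatives were DESeq2 1.42.0, its size factors, no filter, only the groups compared, GC correction, batch terms and leaving out libraries. Replicates differed by more than counting error (lowest chi-square per degree of freedom 7.81). Besides the 10 genes and Acvr1c, the text names listed genes called one way in at least 4 of the 5 activin B comparisons, up to 4 called listed genes with at least 2 CPM and the largest change per line comparison, and the 5 genes most like Pappa2; other genes were named after their values were seen. Single values of 2 listed genes are not reported here. The members and lists were chosen with earlier results of these data known.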

Additional observations from a re-analysis of the deposited data

Results flagged for a closer look

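The activin B response of Pappa2 differed between sh1/2 and control cells by 0.42 ± 0.14 on the log2 scale (0.4159, adjusted p = 0.0430, edgeR), as a test of the difference itself. That test uses the sh1/2 and control counts on which Pappa2 was selected, so it is not independent of the selection. Pappa2 rose with activin B in sh1/2 cells, with overlapping arms, and its change in control cells did not pass (-0.11 ± 0.09, adjusted p = 0.476). The activin B response of Igfbp7 differed between the same lines by -0.63 ± 0.18 (-0.629, adjusted p = 0.0341). Igfbp7 rose with activin B in control cells, with no overlap, and its change in sh1/2 cells, with overlapping arms, did not pass (-0.20 ± 0.14, adjusted p = 0.252). Of 12 fits that each left out 1 library, 3 kept the call for Pappa2 and 5 that for Igfbp7. Without the GC-shifted libraries, with only replicate 2 left of sh1/2 DOX, the differences were 0.73 for Pappa2 and -0.41 for Igfbp7.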

How the results depend on the processing

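Over 1710 alternatives for the 9 tested genes, 1552 left the call as it was (and any uncalled value within its error), 70 ended a call, 44 made one, 1 gave a call in the other direction, and 43 moved a value that was not called by more than its error. Among the 1552 and the 43, 64 gave the other sign to a value that was called in neither fit. Both totals include Pappa2 in the hairpin lines against control, which has no call. There a value counted as moved where it shifted by at least the pooled replicate SD of its log2 CPM. Counts of genes called, of the 9, moved as follows. In control cells activin B changed 5, with 3 when no low-count filter was used, 1 in a fit of only the groups compared, 2 without the GC-shifted libraries and 2 to 4 without single libraries. In cells labelled ALK7 it changed 7 (6 to 7 without single libraries). In ALK7-DN cells 2 became 4 with GC correction and replicate block. In sh2 cells 2 became 5 with GC correction and block, 0 with a batch term and 1 to 3 without single libraries. In sh1/2 cells 4 became 7 with GC correction, with or without the block, 2 in a fit of only the groups compared and 3 to 4 without single libraries.

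For sh1/2 minus control the count of 2 became 0 without the filter or with only the groups compared, 4 with the replicate block and 0 to 3 without single libraries. All genes called there were 2768, with 5956 in the block fit and 64 without the GC-shifted libraries. Among line comparisons, ALK7 with DOX alone went from 1 to 2 with GC correction, alone or with a shared block, and 1 to 2 without single libraries. ALK7-DN went from 0 to 1, and sh1/2 with DOX alone from 3 to 5 of the 8 genes other than Pappa2, with GC correction and a shared block, and ALK7 with activin B from 2 to 1 with only the groups compared. sh1/2 with DOX alone gave 2 to 3, and with activin B 4 became 3 to 5, without single libraries.

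The replicate block within lines changed 6 of 63 calls of the 9 genes, all given above, and 0 of 104 of the other genes followed. Between lines, same-numbered libraries had correlations of -0.326 to 0.432, of which 13 of 18 were positive and 8 over 0.1, with all 3 over 0.1 in 0 of 6 comparisons. A block shared by all lines changed 2 of 54 calls.

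Directions that turned where either value was called, as log2 values, were these. With GC correction, and with the block added, the sh1/2 activin B change was -0.037 and -0.038 for Akt2, -0.046 and -0.046 for Rptor, and 0.045 and 0.045 for Rps6kb1. Without the GC-shifted libraries it was 0.0096 for Rps6kb1. The sh1/2 minus control response was -0.024 with GC correction and -0.024 with the block added for Akt1, -0.17 for Igf2 with both, and 0.014 for Pik3ca without the GC-shifted libraries. Without these, sh1/2 against control with DOX alone was -0.045 for Gsk3b. The causes were not tested. Counts were lowest for Pappa, Igfbp3 and Igf1r, which limits their precision most.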
